A study of Mus musculus with 12 samples.

Results

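Antioxidant enzymes were followed through the bone marrow progenitors that give rise to megakaryocytes and red cells. The set was fixed by name and holds 10 genes, chosen with earlier results of these data known, all of which are among the 41128 genes counted: the peroxiredoxins Prdx1, Prdx2 and Prdx6, catalase (Cat), the glutathione peroxidases Gpx1 and Gpx4, the superoxide dismutases Sod1 and Sod2, thioredoxin reductase 1 (Txnrd1) and heme oxygenase 1 (Hmox1). RNA-Seq had been carried out on pre-megakaryocyte/erythroid progenitors (PreMegEs) from 4 groups, with 3 libraries per group and marrow from 3 mice pooled per library. All mice were C57BL/6 and between 12 and 16 weeks of age. The WT group was wild type. The P2- and P2+ groups came from Runx1 P1-GFP::P2-hCD4/+ mice, which carry a green fluorescent protein reporter at the distal Runx1 promoter P1 and a truncated human CD4 reporter at the proximal promoter P2. Both fractions expressed the P1 reporter and were sorted as hCD4 negative or hCD4 positive PreMegEs. The KO group was RUNX1C knockout, meaning that it lacked the isoform made from P1, and was not sorted on P2. Whether the KO libraries were prepared alongside the others is not given in the sources used here. The WT mice carried no reporter, so the sort and the reporter genotype cannot be told apart in a comparison of P2+ or P2- with WT. The same holds for KO against P2-, where the Runx1 genotype and the sort on P2 differ together. In sorted bulk samples, fewer cells of a type and less RNA per cell cannot be told apart either.

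Red cells carry oxygen and iron at high concentration, and erythroid progenitors are known to raise their stock of antioxidant enzymes as they mature. Superoxide dismutases turn superoxide into hydrogen peroxide. Catalase, glutathione peroxidases and peroxiredoxins then remove the peroxide. Prdx1 and Prdx2 do so at the expense of thioredoxin, which thioredoxin reductase regenerates. Heme oxygenase 1 breaks down free heme and is a classic stress-induced gene. Several of these genes are known targets of the transcription factor NRF2, encoded by Nfe2l2.

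Total counts ranged from 10726098 to 14445026 per library. Levels are given as CPM, the usual count scaled to library size, adjusted by the trimmed mean of M-values over all 12 libraries. Kit (737 to 1150 CPM), Gata1, Gata2 and Slamf1 were present in every library, while Ly6a, which encodes the excluded marker Sca1, stayed at or under 3.96 CPM and Fcgr3 at or under 2.01 CPM. Fcgr2b, which also belongs to the excluded CD16/32, was detected at 7.0 to 17.1 CPM and was higher in P2+ than in P2- (adjusted p = 0.000511) and WT (adjusted p = 0.00284). Eng, whose protein Endoglin was also gated out, was nevertheless detected at 93.9 to 152 CPM. So was Itga2b, whose protein CD41 was gated out too, at a mean of 283 CPM in P2+, 156 in WT and 50.7 in P2-. Summed CPM over 10 early erythroid genes ran from 5853 to 6678 in P2-, from 5637 to 6358 in KO, from 3352 to 3859 in WT and from 1342 to 1517 in P2+. Summed CPM over 10 megakaryocyte genes ran the other way for the sorted fractions, from 844 to 1281 in P2+ against 121 to 174 in P2-, with WT at 551 to 639 and KO at 325 to 362. Replicate 2 of P2- and of P2+ stood apart from the rest, with 13550 and 9233 summed CPM over 12 immediate early genes against at most 1293 in the other libraries. Runx1 itself, counted over both promoters and so no check on loss of RUNX1C alone, averaged 632 CPM in P2+, 370.0 in WT, 360.0 in KO and 209.9 in P2-.

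The most abundant message of the set was that of Gpx1, the main cytosolic glutathione peroxidase. Per length, Gpx1 averaged 610 ± 54.5 RPKM (read count scaled by exon length and library size, SD, n = 3) in WT, far above Prdx6 at 66.5 ± 5.55, Cat at 45.6 ± 1.27, Prdx2 at 25.2 ± 1.60 and Txnrd1 at 23.6 ± 0.310. Sod2 (12.9 ± 1.28), Sod1 (10.7 ± 0.569) and Prdx1 (10.2 ± 0.620) lay close together, followed by Gpx4 (4.58 ± 0.586) and Hmox1 (2.67 ± 0.377). The length used was that of all annotated exons of a gene. For Sod1 this was 3970 bases against 641 in its principal transcript, and for Prdx1 3043 against 877, so the ranking depends on this choice. On the CPM scale the 10 genes summed to 2051 CPM in P2-, 1856 in KO, 1776 in WT and 1473 in P2+. Gpx1 made up between 49.5% and 51.9% of the sum, from which the processed pseudogenes described below were left out. The lowest P2- library (2024) lay above the highest WT library (1892), and the highest P2+ library (1541) lay below the lowest WT library (1692).

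**Figure D1:**
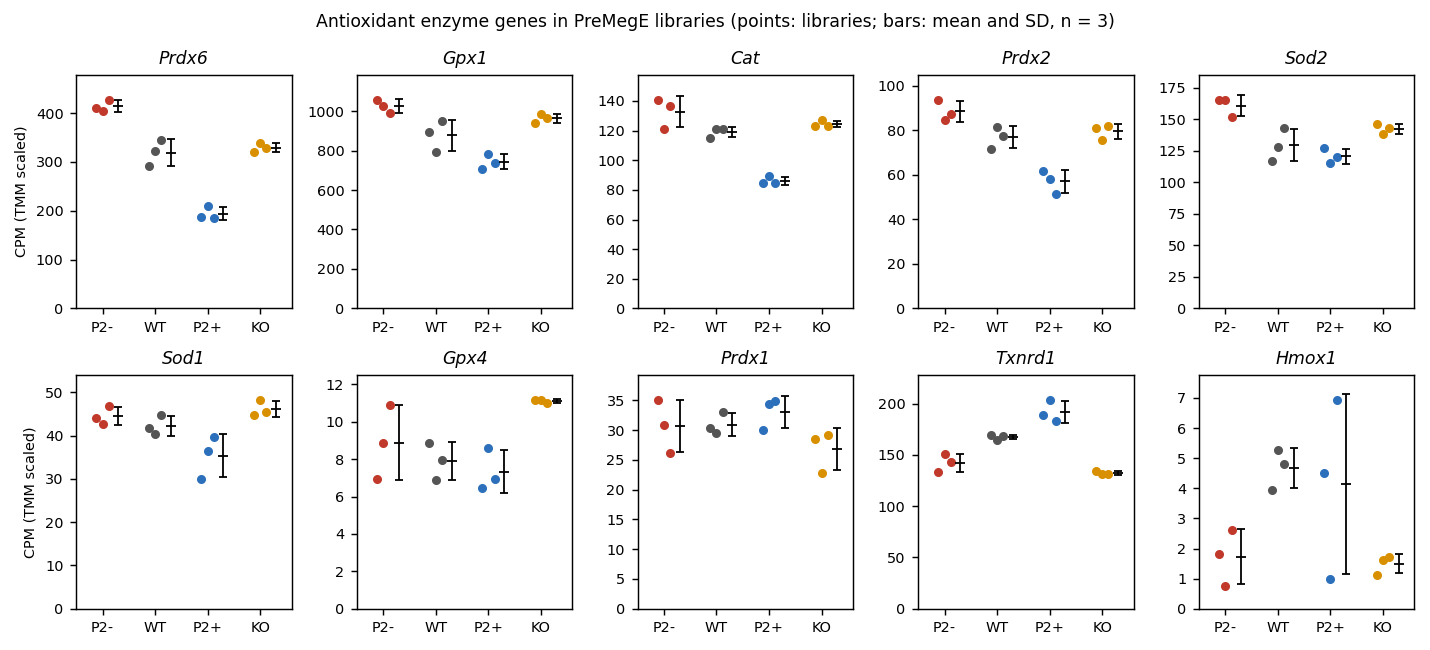
Level of each antioxidant enzyme gene in every library, in CPM (vertical axes start at 0), for P2-, WT, P2+ and KO; points are libraries and the bars beside them give the mean and SD (n = 3). Prdx6, Cat, Prdx2, Gpx1 and Sod1 have all P2+ libraries below all WT libraries and Txnrd1 has them above, beside 35.5% of all genes tested without such overlap in either direction, and 1 P2+ library of Hmox1 lies at 0.972 CPM, far below the other two.

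The levels of Prdx1, Prdx2, Sod1 and Gpx4 have to be read beside the sequences of their copies. Each of these genes has a processed pseudogene, an intronless copy of its message elsewhere in the genome, with long runs of identical coding sequence. Reads had been aligned with Bowtie2, which does not split a read across an intron, so a read that spans 2 exons can match such a copy whole and the gene itself only in part. Only 48.5% of the possible 75-base reads of the Sod1 transcript lie within a single exon, against 53.9% for Prdx1, 57.0% for Gpx4, 74.1% for Prdx2 and 92.6% for Gpx1, whose coding sequence is split by few introns. The stretches below are printed because the gene and its copy are identical over them and because each crosses an exon junction. They were read from the gene's transcript (GENCODE vM21, GRCm38) on the coding strand, and capitals mark the 5 bases on either side of the junction.
Sod1 and Gm8566: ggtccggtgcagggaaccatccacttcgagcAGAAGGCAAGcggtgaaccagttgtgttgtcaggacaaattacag
Prdx2 and Tdpx-ps1: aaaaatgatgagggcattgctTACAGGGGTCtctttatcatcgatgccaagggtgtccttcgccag
Prdx1 and Gm21399: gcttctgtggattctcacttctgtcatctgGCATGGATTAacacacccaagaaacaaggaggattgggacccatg
Gpx4 and Gpx4-ps2: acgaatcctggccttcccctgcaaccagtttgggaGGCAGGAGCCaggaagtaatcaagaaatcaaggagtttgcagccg

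Gm8566, Gm21399 and Tdpx-ps1 held more counts than the genes they copy. Gm8566 (chr6:67205619-67206083) averaged 424 ± 41.4 CPM in WT against 42.3 ± 2.26 for Sod1, and its ratio to Sod1 stayed between 9.98 and 10.4 in the 4 groups. Gm21399 (chr8:129252998-129253594) averaged 183 ± 13.6 CPM in WT against 30.9 ± 1.89 for Prdx1, a ratio that ran from 5.91 to 6.37. A further Prdx1 copy, Gm7204 (chr16:48218605-48219201), stood at 14.6 ± 1.37 CPM. Tdpx-ps1 (chr1:99790429-99791025) averaged 187 ± 15.3 CPM in WT against 76.9 ± 4.87 for Prdx2, with ratios from 2.43 to 2.70. For Gpx4, 74.4% of the 50-base words of its coding sequence recur in Gpx4-ps2 and 13.8% in a further copy, AC122253.3, and neither copy was analysed here for its counts. Whether reads of the genes were counted under their copies was not tested, since this needs the reads. The levels of Prdx1, Prdx2, Sod1 and Gpx4 are therefore uncertain, and their comparisons are given below as counted, with the value after adding the counts of the copies for Prdx1, Prdx2 and Sod1 in P2+ against P2- and where that changed a call.

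**Figure D2:**
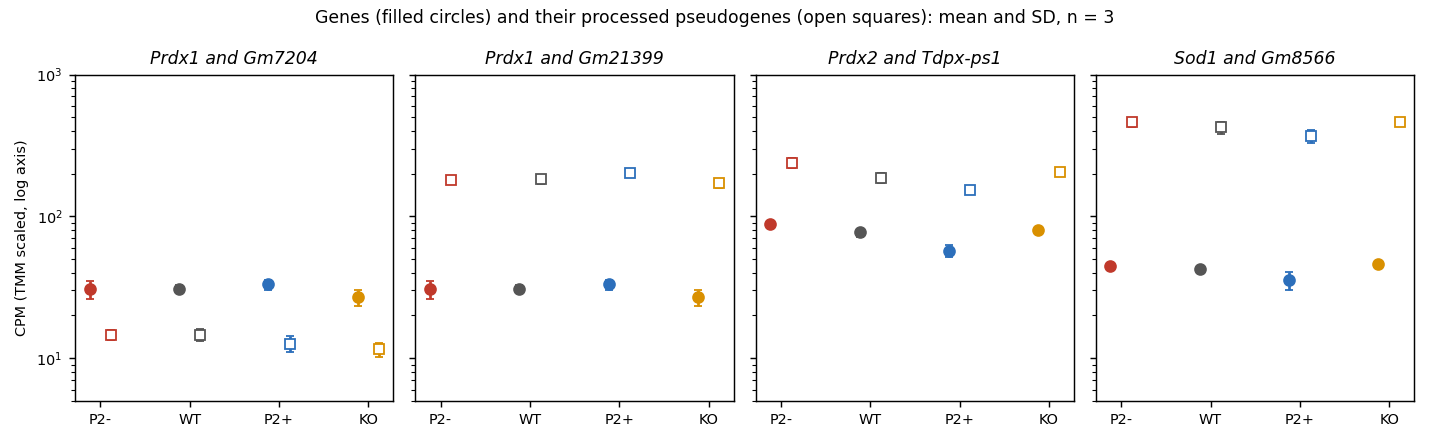
Mean CPM and SD (n = 3; vertical log axis) of Prdx1, Prdx2 and Sod1 (filled circles) and of their processed pseudogenes (open squares) in each group. The copy of Sod1 lies about 10 times above the gene in all 4 groups, Gm21399 about 6 times above Prdx1, and Gm7204 below Prdx1.

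The comparison of P2+ with P2- asks how the antioxidant genes differ between the fraction biased toward megakaryocytes and the fraction biased toward red cells. Of the 10 genes, 5 were lower in P2+ and 1 was higher at an adjusted p under 0.05 (edgeR's quasi-likelihood test, Benjamini-Hochberg adjustment over all 12836 genes tested). Among all genes tested, 17.0% were lower and 20.1% higher. The median log2 fold change of the 10 genes was -0.37, and that of all genes tested was -0.02. Prdx6, Prdx2, Cat, Gpx1 and Sod2 fell and Txnrd1 rose, whereas Sod1, Gpx4, Prdx1 and Hmox1 did not pass the test. This fit did not pair the libraries, and with the replicate number as a block Sod1 and Hmox1 passed, as given below. At a change of at least 2-fold, which 12.7% of all genes tested reached with an adjusted p under 0.05, Prdx6 alone remained in the unpaired fit. For 7 of the 10 genes all libraries of one fraction lay above all of the other, beside 49.9% of all genes tested, so such separation was common in this comparison.

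Prdx6 (ENSMUSG00000026701, chr1:161240112-161251219, minus strand), which encodes the 1-Cys peroxiredoxin that also repairs oxidized phospholipids, changed most among the genes that passed. It measured 411, 405 and 428 CPM in the P2- libraries and 188, 209.9 and 185 in the P2+ libraries. The groups were widely separated, with every P2+ library at roughly the same level. The log2 fold change was -1.09 ± 0.08 (SE), or 0.470-fold, with an adjusted p of 1.51e-05, and 175 genes had a smaller p. Within each replicate number the ratio of P2+ to P2- was 0.457, 0.518 and 0.432. Its paralog Prdx6b, which shares part of the sequence of Prdx6, fell alike from 114 to 53.8 CPM (log2 fold change -1.08 ± 0.07). Whether Prdx6 reads entered the count of Prdx6b was not tested, so this fall is not taken as separate from that of Prdx6.

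The other peroxide-removing enzymes followed with smaller changes. Cat (chr2:103453849-103485160), the peroxisomal enzyme that splits hydrogen peroxide, stood at 141, 121 and 136 CPM in P2- and at 84.7, 89.2 and 84.7 in P2+. All P2+ libraries lay below all P2- libraries, and the log2 fold change was -0.62 ± 0.08 (adjusted p = 0.000333). Prdx2 (chr8:84969587-84974834), the peroxiredoxin that is among the most abundant proteins of red cells, stood at 93.7, 84.6 and 87.3 CPM in P2- and at 61.7, 58.2 and 51.4 in P2+, with a log2 fold change of -0.63 ± 0.09 (adjusted p = 0.000827). Its copy Tdpx-ps1 fell by the same amount, from 239 to 154 CPM (log2 fold change -0.62 ± 0.08), and with the counts of the copy added Prdx2 fell by 0.62 on the log2 scale (adjusted p = 0.00032). Prdx2 overlaps Junb and, over 181 bases, Rnaseh2a, both on the opposite strand. Rnaseh2a ran from 29.0 to 30.4 CPM in P2+ and from 33.8 to 40.5 in P2-. Junb reached 1508 CPM in P2- replicate 2 and 901 in P2+ replicate 2, where Prdx2 stood at 84.6 and 58.2 CPM. Whether Junb or Rnaseh2a reads entered the count of Prdx2 was not tested.

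Gpx1 (chr9:108338903-108340343) measured 1058, 1027 and 992 CPM in P2- and 709, 784 and 735 in P2+. The log2 fold change was -0.46 ± 0.07 (adjusted p = 0.000832). Because Gpx1 was so abundant, this modest ratio was the largest drop of the set in CPM, from a mean of 1026 to 743. Sod2 (chr17:13006846-13040063), the manganese enzyme of the mitochondrial matrix, stood at 165, 166 and 152 CPM in P2- and at 127, 115 and 120.1 in P2+, a log2 fold change of -0.41 ± 0.08 (adjusted p = 0.00297). The libraries of the 2 fractions did not overlap for either gene.

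Txnrd1 (chr10:82833951-82897712), which encodes the cytosolic selenoenzyme that keeps thioredoxin reduced, was the exception in direction. It measured 133, 151 and 143 CPM in P2- and 189, 204 and 183 in P2+, so that all P2+ libraries lay above all P2- libraries. The log2 fold change was 0.44 ± 0.08, or 1.35-fold, with an adjusted p of 0.00263. Within replicate numbers the ratio was 1.42, 1.35 and 1.28. Txnrd1 overlaps Eid3 on the same strand and Gm38560 and Gm47073 on the opposite strand, and none of these was analysed here.

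Sod1 (chr16:90220754-90226329), the cytosolic copper and zinc superoxide dismutase, lay just outside the threshold as counted. It stood at 44.1, 42.7 and 46.9 CPM in P2- and at 29.9, 36.5 and 39.7 in P2+, without overlap, with a log2 fold change of -0.33 ± 0.12 (edgeR adjusted p = 0.0636). Samples of P2- and P2+ with the same replicate number deviated together, and with that number as a block the log2 fold change was -0.33 and the edgeR adjusted p was 0.0113. With the counts of Gm8566 added, the edgeR adjusted p was 0.0275 at a log2 fold change of -0.33. Gm8566 alone fell from 463 to 368 CPM (log2 fold change -0.33 ± 0.10, adjusted p = 0.027). Sod1 also overlaps Scaf4 on the opposite strand, which ran from 61.5 to 73.2 CPM in P2+ and from 78.7 to 82.3 in P2-. Whether Scaf4 reads entered the count of Sod1 was not tested.

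Hmox1 (chr8:75093621-75100589) was the weakest signal of the set and the least even. It measured 1.83, 0.763 and 2.60 CPM in P2-, resting on 23, 8 and 37 counts. In P2+ it measured 4.52, 0.972 and 6.93 CPM, from 54, 14 and 91 counts. Replicate 2 was lowest in both fractions, and these are the libraries with high immediate early genes. Their part in the level of Hmox1 was not tested. The fit without pairing gave a log2 fold change of 1.23 ± 0.67 and did not pass (edgeR adjusted p = 0.182). Within replicate numbers P2+ was higher each time, at 2.47, 1.27 and 2.67 times P2-, and with the number as a block the log2 fold change was 1.17 with an edgeR adjusted p of 0.0187. Without both replicate 2 libraries it was 1.39, with an edgeR adjusted p of 0.0134.

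Prdx1 and Gpx4 gave no call in either direction. Prdx1 (chr4:116685544-116700822), a cytosolic peroxiredoxin, measured 35.1, 30.8 and 26.2 CPM in P2- and 30.0, 34.4 and 34.8 in P2+, with overlapping libraries and a log2 fold change of 0.11 ± 0.13. Its copy Gm21399 changed by 0.16 ± 0.07 on the log2 scale (edgeR adjusted p = 0.12), and Prdx1 with both copies added by 0.14 ± 0.08 (edgeR adjusted p = 0.204). Gpx4 (chr10:80047166-80056439), the selenoenzyme that reduces lipid peroxides in membranes and guards against ferroptosis, measured 6.92, 8.87 and 10.9 CPM in P2- and 6.45, 8.61 and 6.93 in P2+, with a log2 fold change of -0.27 ± 0.22. Its standard error allows changes as large as those of Sod2 or Gpx1, so the lack of a call does not show that Gpx4 was unchanged.

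**Figure D3:**
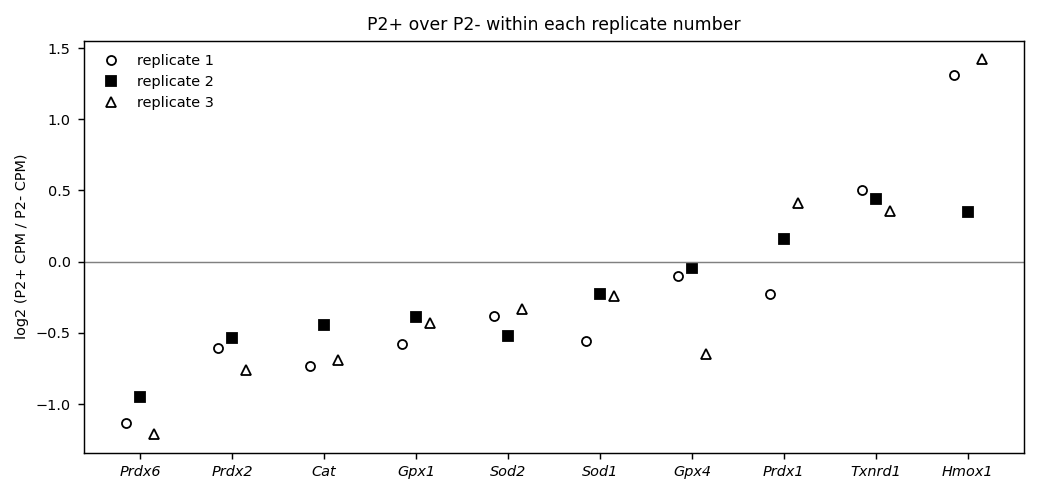
log2 ratio of P2+ CPM to P2- CPM within replicate numbers 1, 2 and 3 for each gene; the horizontal line marks equal levels. Prdx6, Prdx2, Cat, Gpx1, Sod2, Sod1 and Gpx4 lie below the line in all 3 pairs, Txnrd1 and Hmox1 above it in all 3, and Prdx1 on both sides.

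The WT libraries hold PreMegEs that were sorted but not divided by P2, from mice without the reporters. These comparisons share the WT libraries with each other and the sorted libraries with the one above. In P2+ against WT, 3 of the 10 genes were lower and none was higher by edgeR (0 also by DESeq2 and 1, Txnrd1, at an unadjusted p under 0.05), where 7.07% of the 12941 genes tested were lower and 9.45% higher. An edgeR fit of all 12 libraries called Gpx1 and Txnrd1 in addition, and Txnrd1 lay higher in P2+. In P2- against WT, 2 were higher and 1 was lower, where 6.85% of the 12767 genes tested were higher and 9.60% lower. Without WT replicate 1 none of these 3 passed, and without WT replicate 2 or P2- replicate 1 only 1 did. Calls of at least 2-fold made up 3.84% and 4.68% of the genes tested in these comparisons, and they took in none of the 10 genes in the first and Hmox1 in the second. In each of these comparisons 6 of the 10 genes had no overlap with WT, beside 35.5% and 34.7% of all genes tested.

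Prdx6 was the only one of the 10 genes that passed on both sides of WT by edgeR's quasi-likelihood test. Its WT libraries stood at 292, 322 and 345 CPM, between the fractions and apart from both. It was lower in P2+ (log2 fold change -0.71 ± 0.09, adjusted p = 0.000534) and higher in P2- (0.39 ± 0.08, adjusted p = 0.0107), though the second call was lost without WT replicate 1 (edgeR adjusted p = 0.0573). Cat (115, 121 and 121 CPM in WT) was lower in P2+ than in WT by 0.46 on the log2 scale (-0.46 ± 0.07, adjusted p = 0.00186), and its P2- level differed by only 0.17 ± 0.08 (edgeR adjusted p = 0.178). Prdx2 (71.8, 81.5 and 77.5 CPM in WT) was lower in P2+ (-0.42 ± 0.09, adjusted p = 0.0113), a call lost without WT replicate 2 (edgeR adjusted p = 0.0556). In P2- it was 0.21 ± 0.08 above WT as counted (edgeR adjusted p = 0.107) and 0.32 above WT with the counts of its copy added (edgeR adjusted p = 0.0327).

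Sod2 lay nearer to P2+ in WT. Its WT libraries, 117, 128 and 143 CPM, overlapped those of P2+, and it was higher in P2- than in WT (log2 fold change 0.33 ± 0.09, adjusted p = 0.0319). That call was lost with edgeR's exactTest (adjusted p = 0.0555) and without WT replicate 1 (0.138), WT replicate 2 (0.112) or P2- replicate 1 (0.08). Gpx1 (895, 793 and 947 CPM in WT) missed the threshold on both sides as fitted, at -0.24 ± 0.08 in P2+ (edgeR adjusted p = 0.0597) and 0.23 ± 0.08 in P2- (edgeR adjusted p = 0.0589). DESeq2 called both, with adjusted p-values of 0.0219 and 0.0257. Txnrd1 held a narrow WT range of 165 to 169 CPM that neither fraction entered, with log2 fold changes of 0.20 ± 0.08 in P2+ (edgeR adjusted p = 0.0977) and -0.22 ± 0.08 in P2- (edgeR adjusted p = 0.0693).

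Placing the mean WT level on the path from P2- (0%) to P2+ (100%) gave 29.3% for Cat, 37.0% for Prdx2, 43.2% for Prdx6, 50.8% for Txnrd1, 52.0% for Gpx1 and 78.6% for Sod2. The WT libraries of Cat spanned 24.8% to 37.5% and those of Sod2 45.2% to 109%, with Gpx1 at 27.7% to 82.2% and Prdx6 at 31.7% to 55.8%. These spans hold the P2- and P2+ means fixed, and differences between genes were not tested.

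Hmox1 was the member that fell in P2- against WT. Its WT libraries stood at 3.96, 5.26 and 4.82 CPM (57, 62 and 66 counts), all above the 3 P2- libraries, and the log2 fold change was -1.39 ± 0.39 (adjusted p = 0.0363). The call was lost without P2- replicate 1 (edgeR adjusted p = 0.0793), without WT replicate 1 (0.0716), WT replicate 2 (0.121) or WT replicate 3 (0.0929), and in a fit of all 12 libraries (0.0854). Macrophages are a known source of Hmox1, and CD11B was among the lineage antibodies used in the sort. Summed CPM over 12 macrophage genes ran from 115 to 161 in P2- and from 67.4 to 81.3 in WT. Most of it was Slc40a1, which was also high in KO (115 to 142 CPM) and low in P2+ (5.71 to 7.29 CPM). Of the 5 genes tested, Slc40a1 and Axl (a mean of 13.4 CPM in P2- against 7.09 in WT, adjusted p = 0.00692) were higher in P2- and none was lower by edgeR (0 also by DESeq2 and at an unadjusted p under 0.05). The means of the other 3 lay lower in P2-, as did that of Hmox1, and did not pass: Cd163 stood at 2.83 CPM in P2- against 3.93 in WT, Spic at 1.95 against 3.00 and Vcam1 at 0.837 against 1.33. The median log2 fold change of the 5 was -0.47. In both groups C1qa, C1qb and C1qc reached at most 1.46 CPM, and Emr1 and Timd4 were at 0 in every P2- library. Of 9 neutrophil and monocyte genes tested, 5 were lower in P2- and 0 higher by edgeR, and DESeq2 called 6 lower and 1 higher. Their summed CPM ran from 64.0 to 164 in P2- and from 177 to 307 in WT. The part of these cell types was not tested. In P2+ the Hmox1 libraries fell on either side of WT and the log2 fold change was -0.18 ± 0.52, which became 0.30 without P2+ replicate 2.

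**Figure D4:**
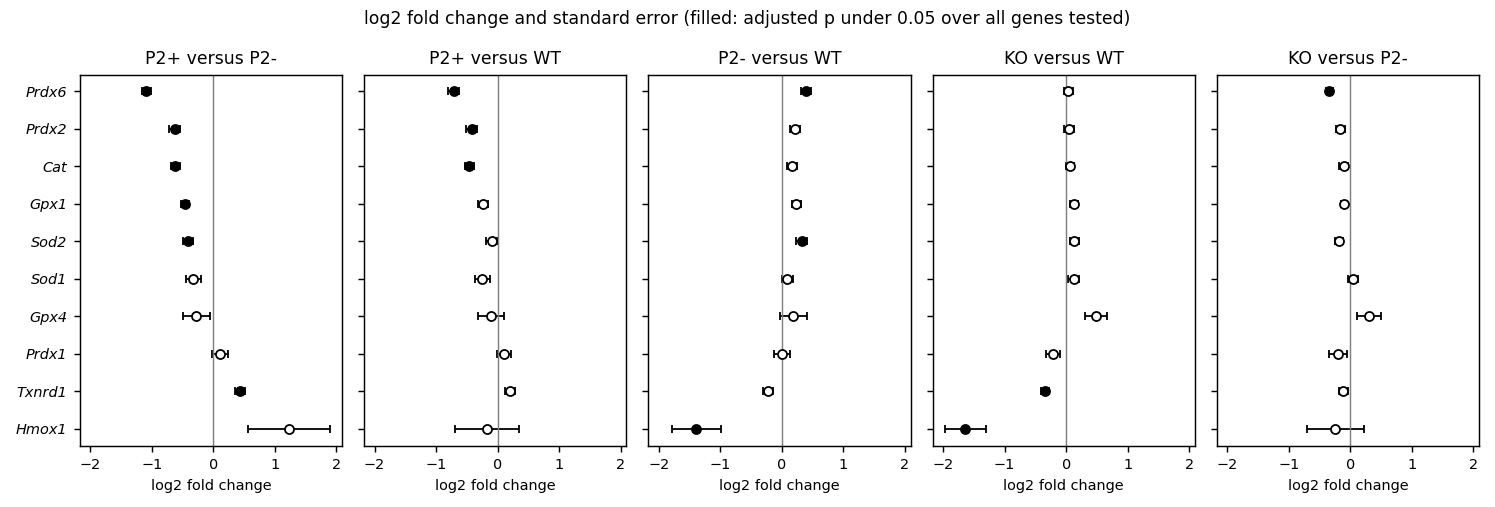
log2 fold change and standard error of the 10 genes in each comparison, first group over second; filled points passed the test (adjusted p under 0.05). Filled points lie mostly left of 0 in P2+ versus P2- and P2+ versus WT, with Txnrd1 at 0.44 to the right, and only Txnrd1 and Hmox1 are filled in KO versus WT.

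In KO against WT, 2 of the 10 genes were lower and none was higher by edgeR (0 also by DESeq2 and 1, Gpx4, at an unadjusted p under 0.05), where 8.76% of the 12784 genes tested were lower and 6.18% higher, and 3.41% were called at 2-fold or more. KO and WT libraries did not overlap for 6 of the 10 genes (Prdx1, Cat, Gpx4, Sod1, Txnrd1 and Hmox1), beside 31.6% of all genes tested. Txnrd1 fell to 134, 131 and 131 CPM, below every WT library, a log2 fold change of -0.35 ± 0.06 (0.787-fold, adjusted p = 0.000788). Hmox1 fell to 1.134, 1.63 and 1.73 CPM, resting on 13, 19 and 19 counts, a log2 fold change of -1.64 ± 0.33 (adjusted p = 0.00236). This call held when any single library was left out and was lost in a fit of all 12 libraries (edgeR adjusted p = 0.0798). Cell type genes also differed between KO and WT. Of 10 early erythroid genes 8 were higher in KO (5637 to 6358 summed CPM against 3352 to 3859), and of 9 megakaryocyte genes tested 6 were lower and 1 was higher (325 to 362 summed CPM against 551 to 639). Of 8 neutrophil and monocyte genes tested 6 were lower by edgeR and 4 by DESeq2 (79.2 to 128 summed CPM against 177 to 307). By edgeR 2 of 7 tested lymphoid genes and 2 of 10 immediate early genes were also lower, and both tested mast and basophil genes were higher. The part of these lists in the results was not tested.

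The other 8 genes did not pass the test in KO. The log2 fold change from WT was 0.04 ± 0.07 for Prdx6, 0.04 ± 0.08 for Prdx2, 0.06 ± 0.07 for Cat and 0.13 ± 0.07 for Gpx1. Gpx4 was tightest in KO, at 11.2, 11.1 and 11.01 CPM and above every WT library, with a log2 fold change of 0.48 ± 0.18 that did not pass (edgeR adjusted p = 0.0866). Sod1 (0.12 ± 0.09), Sod2 (0.13 ± 0.08) and Prdx1 (-0.21 ± 0.12) made up the rest.

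The early erythroid genes were as high in KO as in P2-, which led to a direct comparison of the 2 groups, chosen after the levels had been seen. Of 12588 genes tested, 1.33% were higher in KO, 0.278% were lower and 0.508% were called at 2-fold or more. None of the 10 early erythroid genes passed the edgeR test in either direction, 3 were lower in KO at an unadjusted p under 0.05, and DESeq2 called 1 of them lower. Of 9 megakaryocyte genes tested, 7 were higher in KO by edgeR and 8 by DESeq2 (325 to 362 summed CPM against 121 to 174), and both tested mast and basophil genes were higher (47.4 to 64.1 summed CPM against 24.4 to 28.2). Their part in what follows was not tested. Among the antioxidant enzymes Prdx6 was lower in KO, at 320.2, 338 and 329 CPM against 405 to 428 in P2-, without overlap (log2 fold change -0.34 ± 0.06, adjusted p = 0.0226), and 99 genes had a smaller p. The call was fragile. It was lost with edgeR's exactTest (adjusted p = 0.0907) and without KO replicate 1 (0.133), KO replicate 2 (0.11), KO replicate 3 (0.127) or P2- replicate 3 (0.0571). Prdx2 (-0.17 ± 0.07), Gpx1 (-0.10 ± 0.05) and Sod2 (-0.19 ± 0.07) also lay lower in KO without overlap of libraries, and Gpx4 (0.31) lay higher without overlap, but these did not pass. With Prdx6 that made 5 of the 10 genes without overlap, beside 21.2% of all genes tested. Txnrd1 (-0.12 ± 0.07) and Hmox1 (-0.25 ± 0.46) overlapped.

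The members thus kept different orders over the groups. Mean levels ran P2-, KO, WT, P2+ from high to low for Prdx6, Prdx2, Cat, Gpx1 and Sod2. For Prdx6, Prdx2 and Gpx1 the neighbors KO and WT overlapped and the other steps did not. For Cat it was P2- and KO that overlapped, and for Sod2 both KO with WT and WT with P2+. Txnrd1 ran P2+, WT, P2-, KO, with overlap only between the last pair. Sod1 and Gpx4 were highest in KO, and Prdx1 and Hmox1 had overlapping neighbors throughout. The order of Prdx6, Prdx2, Cat, Gpx1 and Sod2 is also that of the summed early erythroid genes, whose part in these results was not tested. The match is one of rank. In KO the erythroid sum overlapped P2- and not WT, as did Cat. For Prdx6, Prdx2, Gpx1 and Sod2 the KO libraries overlapped WT and not P2-.

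Genes with the most similar profile were sought among 9529 genes with a mean of at least 10 CPM, by Pearson correlation of log2 CPM over the 12 libraries, which share the same group differences. For Prdx6 the nearest was Gclm, the modifier subunit of the enzyme that starts glutathione synthesis (r = 0.986), followed by Fgfrl1 (0.982) and the metallothionein Mt1 (0.981). Cat was nearest to Dpy19l1 (0.988), Myc (0.983) and Zdhhc14 (0.980). For Prdx2 these were Ublcp1 (0.977), Setd6 (0.976) and Prdx6b (0.974). For Gpx1 they were Ubqln4 (0.980), 2810004N23Rik (0.975) and Taldo1 (0.971), and for Sod2 Slmo2 (0.987), Grwd1 (0.964) and 5830415F09Rik (0.959). Txnrd1 was nearest to Tmem98 (0.981), the adhesion molecule Icam1 (0.977) and the kinase Pak1 (0.974). Sod1 was nearest to its own copy Gm8566 (0.958), followed by Gm9385 (0.943) and its overlapping neighbor Scaf4 (0.936). Prdx1, Gpx4 and Hmox1 had weaker matches. These were Mrps23 (0.906), Ndufs8 (0.890) and Gm12222 (0.890) for Prdx1, Dhrs11 (0.919), Safb2 (0.896) and Tmem259 (0.872) for Gpx4, and Hadh (0.920), B4galt1 (0.907) and Adck3 (0.902) for Hmox1.

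Promoter windows from RefSeq (GRCm38.p6, 250 bases before to 50 after a start) matched 8 of the 10 genes with 13 windows in all; Prdx6 and Hmox1 had none. The core of the antioxidant response element, TGACNNNGC, was searched on both strands and occurs in 12.4% of 32851 promoters. It occurred in 1 of the 3 Txnrd1 windows, in that of Prdx1 and in that of Sod1. An erythroid GATA motif, AGATAA (11.2% of promoters), occurred in none of the 13 windows. The KLF-type motif CCNCNCCC (49.5% of promoters) occurred in at least 1 window of all 8 genes. There were 4 matches in the Cat window, 3 each in those of Prdx1 and Sod1 (in each of these 3 windows 2 of the matches overlap), 2 each in those of Prdx2, Sod2 and 1 Txnrd1 start, and 1 in that of Gpx1 and in each of 3 of the 4 Gpx4 windows, so the motif was present in genes that fell, in Txnrd1 and in genes that did not pass the test. The stretch upstream of the Txnrd1 start with the response element is shown because this gene moved against the others, and those of Cat and Prdx2 because they fell together. Each is on the gene's own strand, stops before the first annotated exon base, and has the matches in capitals: the antioxidant response element for Txnrd1 (here on the reverse strand, with its KLF-type matches left in lower case) and the KLF-type motif for the others. These are matches of letters, and binding was not measured.
Txnrd1, chr10:82858956-82859178, plus strand: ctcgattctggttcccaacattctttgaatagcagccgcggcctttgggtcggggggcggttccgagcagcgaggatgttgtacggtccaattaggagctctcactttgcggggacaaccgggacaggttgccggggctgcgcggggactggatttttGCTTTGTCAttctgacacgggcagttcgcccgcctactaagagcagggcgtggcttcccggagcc
Prdx2, chr8:84969372-84969586, plus strand: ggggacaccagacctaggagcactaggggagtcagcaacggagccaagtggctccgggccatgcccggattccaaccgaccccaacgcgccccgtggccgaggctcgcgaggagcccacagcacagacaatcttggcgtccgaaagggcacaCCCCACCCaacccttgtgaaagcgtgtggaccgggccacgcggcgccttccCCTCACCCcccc
Cat, chr2:103485161-103485403, minus strand: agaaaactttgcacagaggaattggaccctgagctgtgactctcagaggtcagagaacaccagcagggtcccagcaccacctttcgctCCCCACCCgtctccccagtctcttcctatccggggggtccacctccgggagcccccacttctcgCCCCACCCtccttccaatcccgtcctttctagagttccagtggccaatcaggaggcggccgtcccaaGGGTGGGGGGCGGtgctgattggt

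Another 87 genes of the antioxidant system, in 7 lists, were examined for the surroundings of these enzymes. In P2+ against P2-, 77 were tested, of which 17 were higher and 18 lower, beside 20.1% higher and 17.0% lower among all genes tested. These shares are the background for each list below, and with so few genes per list nothing is read from a list as a whole. Of 16 genes of the NRF2 pathway and heme breakdown, 5 were lower and 2 higher in P2+. The largest falls were those of the biliverdin reductase Blvrb (48.4 to 8.71 CPM, log2 fold change -2.46 ± 0.14) and the quinone reductase Nqo1 (35.7 to 12.9 CPM, -1.46 ± 0.16). Nfe2l2 itself, named here after its values were seen, fell from 352 to 139 CPM (-1.33 ± 0.12), while heme oxygenase 2, Hmox2, rose (0.47 ± 0.09) and so did Cul3 (0.20 ± 0.07), part of the ligase that marks NRF2 for degradation. DESeq2 and edgeR's exactTest each called only 1 gene of this list higher.

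Glutathione and thioredoxin genes held changes in both directions. Of 15 tested genes of glutathione synthesis and use, 6 were lower in P2+, led by the transferases Gstm5 (40.3 to 8.54 CPM) and Gstp1 (1.60 to 0.468 CPM) and including Gclm (424 to 216 CPM). The 2 that were higher, Mgst1 (0.416 to 1.89 CPM) and Gstt1 (0.943 to 3.95 CPM), were scarce. Gstp1 may have passed the filter at 1 CPM only through P2-, and Mgst1 and Gstt1 only through P2+. In the thioredoxin and glutaredoxin list 4 of 13 were lower, among them the mitochondrial iron-sulfur cluster gene Glrx5 (134 to 63.7 CPM) and the thioredoxin inhibitor Txnip (1377 to 864 CPM), and 1 was higher, the methionine sulfoxide reductase Msra (0.77 ± 0.14). Among 6 further peroxidases and related genes, Gpx7 (1.70 ± 0.44), Srxn1 (0.50 ± 0.16), which reactivates overoxidized peroxiredoxins, and Prdx4 (0.49 ± 0.15), named here after its values were seen, were higher and the mitochondrial Prdx3 was lower (-0.47 ± 0.10). Gpx7 averaged 0.949 CPM in P2- and may also have passed the filter only through P2+.

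Genes of the NADPH oxidase, which makes superoxide, were higher in P2+ for 5 of 7 and lower for none (0 lower also by DESeq2 and at an unadjusted p under 0.05 by edgeR). Ncf1 went from 3.06 to 23.6 CPM (2.95 ± 0.28) and Ncf4 from 1.42 to 7.24 CPM (2.36 ± 0.38). Neutrophil and monocyte genes moved the same way, from a summed 64.0 to 164 CPM in P2- to 313 to 438 CPM in P2+, although GR1 and CD11B were among the lineage antibodies used to exclude such cells. Of 10 tested, 6 were higher, among them Mpo, at a mean of 104 CPM in P2+ against 11.2 in P2-. Csf1r, Ctsg and Ly6c2, also among the 6, averaged 0.254, 0.813 and 0.861 CPM in P2-. They may have passed the filter at 1 CPM only through P2+. The means of S100a8, S100a9 and Ngp lay lower in P2+ (log2 fold changes of -0.49, -0.60 and -0.59) and did not pass. All 3 tested mast and basophil genes were also higher in P2+ (24.4 to 28.2 summed CPM in P2- and 84.3 to 137 in P2+), as were 3 of 6 tested lymphoid genes by edgeR and 5 by DESeq2 (17.6 to 28.0 and 43.0 to 116 summed CPM). The part of such cells in this result was not tested. Of 11 tested FoxO, p53 and sirtuin regulators 4 were higher, led by Sirt3 (0.69 ± 0.11) and Sesn3 (0.56 ± 0.17), and 2 were lower, Trp53 (-0.73 ± 0.07) and Foxo3 (-0.35 ± 0.08). None of the 9 genes of selenoprotein synthesis, on which Gpx1, Gpx4 and Txnrd1 depend, passed the test by edgeR or DESeq2, and 3 had an unadjusted p under 0.05, 1 of them higher and 2 lower.

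**Figure D5:**
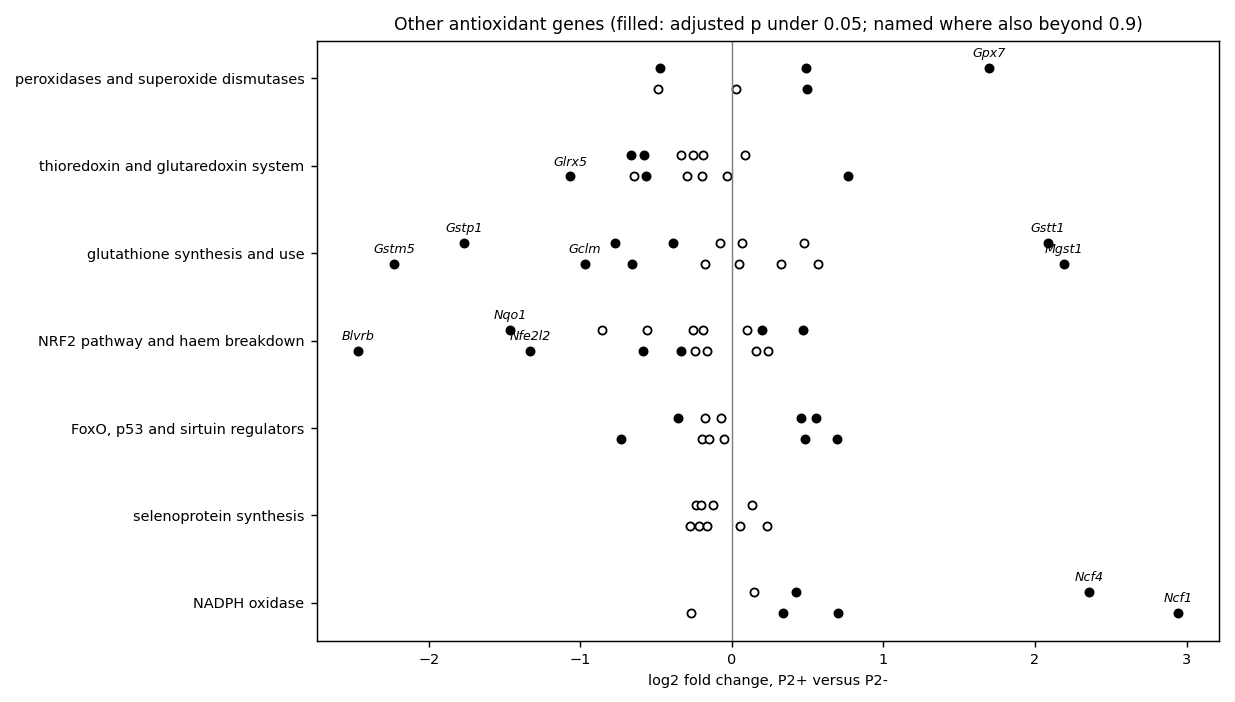
log2 fold change of P2+ over P2- for the tested genes of the 7 other antioxidant lists (vertical axis, 1 row per list); filled points have an adjusted p under 0.05, and those beyond 0.9 on either side are named. Blvrb, Gstm5, Gstp1, Nqo1 and Nfe2l2 lie far to the left, and Ncf1, Ncf4, Mgst1 and Gstt1 far to the right.

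In P2+ against WT, 4 of 76 tested genes of these lists were higher and 11 lower, beside 9.45% and 7.07% of all genes tested, and in P2- against WT 12 of 77 were higher and 5 lower, beside 6.85% and 9.60%. Blvrb was 8.71 CPM in P2+, 32.6 in WT and 48.4 in P2-, and Nqo1 was 12.9, 26.3 and 35.7. Both differed from WT in either fraction. The number of list genes called in P2- against WT was 17 in all, against 7 without WT replicate 1 and 9 without WT replicate 2. In KO against WT, 8 of 76 were higher and 6 lower, beside 6.18% and 8.76% of all genes tested. These were 14 in all, against 7, 8 and 9 without KO replicates 1, 2 and 3. Blvrb (0.53 ± 0.12), Nqo1 (0.52 ± 0.11) and Nfe2l2 (0.50 ± 0.06) were higher in KO, as was the selenocysteine lyase Scly (0.57 ± 0.10), whereas Msrb3 (-2.37 ± 0.37), Ncf1 (-1.49 ± 0.27) and Sirt3 (-0.64 ± 0.13) were lower. Neutrophil and monocyte genes were lower along with Ncf1, 6 of 8 tested by edgeR and 4 by DESeq2 (79.2 to 128 summed CPM in KO against 177 to 307 in WT), and their part was not tested. Txnrd1, also a known NRF2 target, thus ran opposite to Nfe2l2 in P2+ against P2- and in KO against WT, with both genes past the test each time. In KO against P2-, none of 76 genes of these lists passed the edgeR test, 3 were higher and 8 lower at an unadjusted p under 0.05, and DESeq2 called 3, all lower.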

How the data were processed

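Per the labels, RNA from sorted PreMegEs was sequenced in 12 libraries. The authors made strand-specific poly(A) libraries, aligned paired-end 75 bp reads to GRCm38 with Bowtie2 (2.21 in the submitters' processing notes) at default settings, and deposited raw counts per gene from featureCounts. Use of strand and of multiply mapped reads in counting is not given in the sources used here. Groups followed the labels. Each comparison was fitted on its 6 libraries with edgeR 4.0.16 (R 4.3.3; quasi-likelihood F-test, TMM scaling, genes reaching 1 CPM in no fewer than 3 of the 6, Benjamini-Hochberg adjusted p under 0.05 over all genes tested). Log2 fold changes are raw estimates, with standard errors derived from the F statistic. The script was tested on simulated data. Coordinates and exonic lengths are from GENCODE vM21, and copies were genes sharing at least 50 words of 50 coding bases with a member. P2- and P2+ libraries with the same replicate number deviated together (correlations of 0.386, 0.572 and 0.405), which was not so for all pairs with WT (-0.0854 to 0.159) or between P2- and KO (-0.0509 to 0.0459). Blocked values are therefore given in P2+ against P2- for Sod1 and Hmox1 and as a count of members passing. The other values of that comparison are from the unpaired fit. DESeq2 1.42.0, edgeR's exactTest and other settings were alternatives. p-values measure the spread between pools of mice. The members, lists and tests were chosen with earlier results of these data known. Named were all members, up to 2 called genes per list and direction with the largest change, the 3 genes most alike to each member, and genes overlapping or copying a member; exceptions are stated.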

Additional observations from a re-analysis of the deposited data

How the results depend on the processing

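In P2+ against P2-, between 6 and 8 of the antioxidant enzyme genes passed under every alternative except the 2-fold rule, and 27 to 45 of the other antioxidant genes. The 2-fold rule left 1 member in P2+ against P2-, 0 in P2+ against WT, 1 in P2- against WT, 1 in KO against WT and 0 in KO against P2-, because it adds a size limit. A fit of all 12 libraries called 5 members in P2+ against WT (Gpx1 and Txnrd1 in addition), 1 member and 9 other genes in KO against WT, and 1 other gene in KO against P2-. Blocking on the replicate number, 1 member passed in P2- against WT, 0 in KO against P2-, and 8 in P2+ against P2-; these numbers do not pair samples with WT or KO. In KO against P2- edgeR's exactTest called 0 members and 2 other genes, DESeq2 called 3 other genes and leaving out the filter on low values 2. Leaving out single libraries gave 0 to 4 members and 7 to 16 other genes in P2- against WT (0 members and 7 others without WT replicate 1, 1 and 9 without WT replicate 2, 1 member without P2- replicate 1), 3 to 4 members in P2+ against WT, 2 members throughout and 7 to 15 others in KO against WT (7, 8 and 9 others without KO replicates 1, 2 and 3), and 0 to 1 members and 0 to 1 others in KO against P2-. None of the log2 fold changes that changed sign had passed the test. Without single libraries they ran from -0.79 to 0.30 for Hmox1 in P2+ against WT, from -0.11 to 0.10 for Prdx1 and from -0.0018 to 0.34 for Gpx4 in P2- against WT, from -0.0079 to 0.090 for Prdx2 and from -0.027 to 0.10 for Prdx6 in KO against WT, and from -0.58 to 0.17 for Hmox1 in KO against P2-. With the counts of Gm8566 added, an alternative chosen after seeing the data, Sod1 in KO against P2- went from 0.04 to -0.013. The causes of these changes were not tested. Leaving out both replicate 2 libraries coincides with leaving out 1 library wherever only 1 of the fractions is compared. Hmox1 rests on 8 to 91 counts per library and also varied widely between P2+ libraries (CV 72.4%).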
